A study of Sthenoteuthis oualaniensis with 24 samples.

Results

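The unigenes described here were abundant in the intestine and the stomach of immature medium form (MF) *Sthenoteuthis oualaniensis* (SA) and at least 4 times lower in both tissues of mature MF SA. They are 127 of the 66837 unigenes of the MF, where a unigene is a transcript sequence assembled from the reads without a genome. A unigene was a member if its mean was at least 20 FPKM (fragments scaled to unigene length and to the mapped reads of the library) in the Middle form-Undevelopmental-Intestine (MUI) group and in the Middle form-Undevelopmental-Stomach (MUS) group, and if, after adding 0.5 FPKM, each immature mean was at least 4 times the mature mean of the same tissue. The mature groups were Middle form-Developmental-Intestine (MDI) and Middle form-Developmental-Stomach (MDS). Each of the 4 groups had 3 libraries, from intestine or stomach tissue of wild-caught SA. There were 3 SAs sampled per stage, so that mature and immature SA were different animals. The labels do not tie a library to an animal. The dwarf form was sequenced beside the MF but assembled separately, with IDs of its own, and was not used.

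In squid, the stomach mixes food with enzymes that arrive mainly from the digestive gland, and the intestine carries the residue onward and takes part in absorption. Sexual maturation redirects nutrients to the gonad and its accessory glands and goes along with a change of prey as the animal grows. The study compared the tissues before and after maturation to find genes of gastrointestinal function that differ between the stages. Gene names do not accompany the IDs in the files, so no member can be assigned to an enzyme, a pathway or a cell type, and the tissue labels could not be checked against marker genes. Members are therefore described by level, tissue and form of ID. In RNA of a tissue as a whole, fewer cells of a type and less RNA per cell cannot be told apart.

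Members were chosen on the mature and immature values themselves, so these are given as a description with no test. The median member was at 4.31 FPKM in MDI and 48.2 FPKM in MUI, and at 4.69 FPKM in MDS and 40.9 FPKM in MUS. On the log2(FPKM + 0.5) scale, the median difference of mature from immature was -3.13 in the intestine and -2.96 in the stomach, against -0.00405 and 0.0243 over the 50372 unigenes that averaged 0.5 FPKM or more. In none of the 127 members did a library of mature SA reach a library of immature SA of the same tissue. Over those 50372 unigenes, the mature libraries lay below the immature ones without overlap for 32.9% in the intestine, 27.3% in the stomach and 17.4% in both, a count from which nothing is read here, because the rule used the same contrast.

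**Figure D1:**
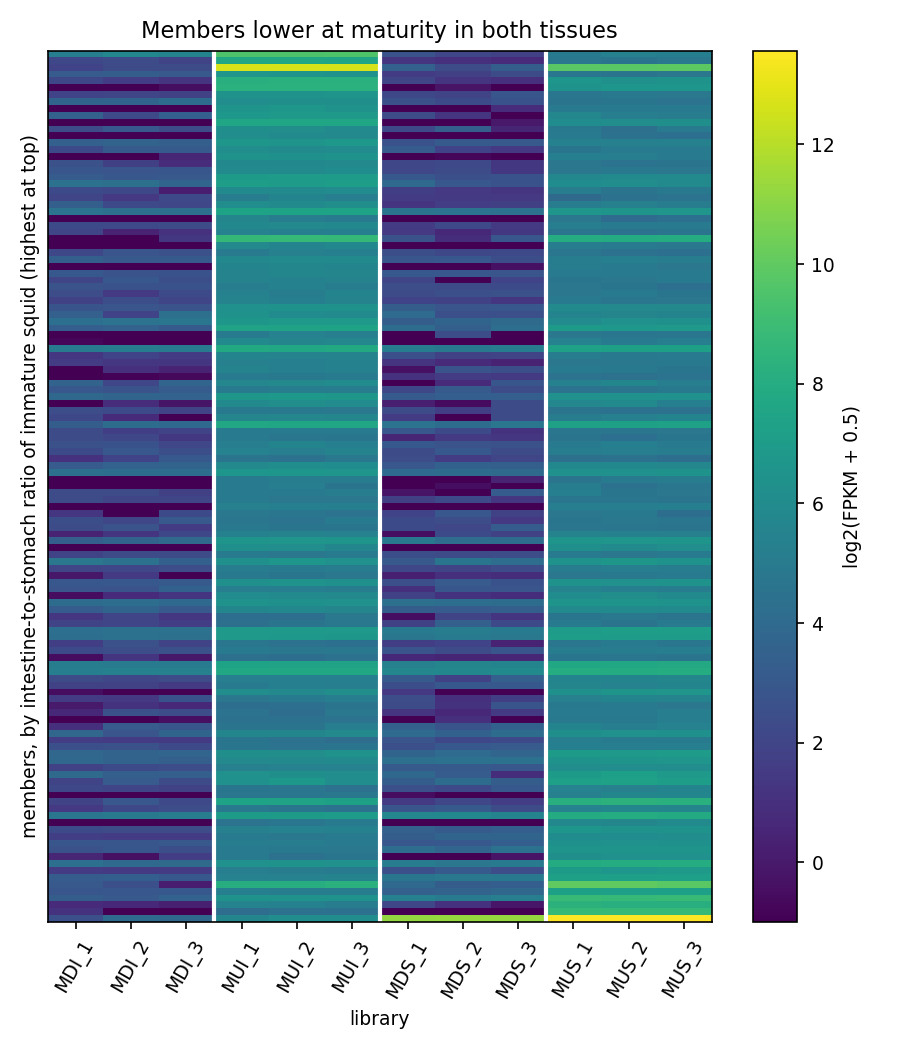
Each row is 1 of the 127 members and each column 1 library of the MF, with log2(FPKM + 0.5) as colour; rows run from the highest intestine-to-stomach ratio of immature SA at the top to the lowest at the bottom. In every row the mature columns are darker than the immature columns of the same tissue, and the bottom row is the member that averages 2429 FPKM in MDS and 11981 FPKM in MUS.

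Many members lay near the threshold. Of the 2670 unigenes with at least 20 FPKM in MUI and MUS, 238 met the ratio for the intestine, 195 for the stomach and 127 for both. A smaller ratio of 4 to 5 was found for 36 members, and 104 unigenes missed the rule with a smaller ratio of 3 to 4. The member with the smallest intestinal ratio (4.08) averaged 29.8 FPKM in MDI and 123 FPKM in MUI. Just outside, at a ratio of 3.98, a unigene averaged 12.3 FPKM in MDI and 50.4 FPKM in MUI. In the stomach, the smallest ratio inside was 4.07, with means of 7.14 FPKM in MDS and 30.6 FPKM in MUS, and the nearest outside was 3.98, with 147 FPKM in MDS and 588 FPKM in MUS. The lowest means inside were 20.2 FPKM in MUI and 20.2 FPKM in MUS, and the nearest outside were 19.9 FPKM in each.

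All but 1 of the members shared a form of ID that the rule did not use. The MF table holds IDs in the form of Trinity components, "comp" with a component and a sequence number, that end in _2 (28389 unigenes) or _1 (25876 unigenes), and IDs of clusters written CL and Contig (12572 unigenes). The labels and methods do not say what the last number stands for. Of the members, 126 (99.2%) ended in _2, none in _1, and 1 was a CL contig. Among the 2670 unigenes that passed the minimum of 20 FPKM, 1024 ended in _2, 408 in _1 and 1238 were CL contigs, so 12.3% of the _2 unigenes, 0 of the _1 unigenes and 0.0808% of the CL contigs were members. Those that met the ratio in 1 tissue alone also ended mostly in _2, with 101 of 111 for the intestine and 66 of 68 for the stomach, against 731 of the 2364 (30.9%) that met neither.

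The endings differed between the stages over the whole MF table, far beyond the members. Within the 50372 unigenes, the median log2 difference of mature from immature was -1.06 in the intestine and -0.79 in the stomach for the 20094 that ended in _2. For the 19286 that ended in _1 it was 1.11 and 0.89. For the 10992 CL contigs it was -0.01 and 0.08. Unigenes ending in _2 took 21.6% of the summed FPKM in MDI and 37.3% in MUI, and 25.1% in MDS and 41.6% in MUS. Unigenes ending in _1 took 36.2% in MDI and 16.1% in MUI, and 33.6% in MDS and 18.3% in MUS. The mirrored rule, with at least 20 FPKM in MDI and MDS and at least 4 times less in MUI and MUS, was met by 228 unigenes, of which 219 (96.1%) ended in _1, 3 in _2 and 6 were CL contigs. The ending thus moved with the stage, in opposite directions for _2 and _1. Whether a member has a near-identical unigene with the other ending that shares its reads was not tested, because no unigene sequences were used here, and each member's fall is uncertain to that extent.

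**Figure D2:**
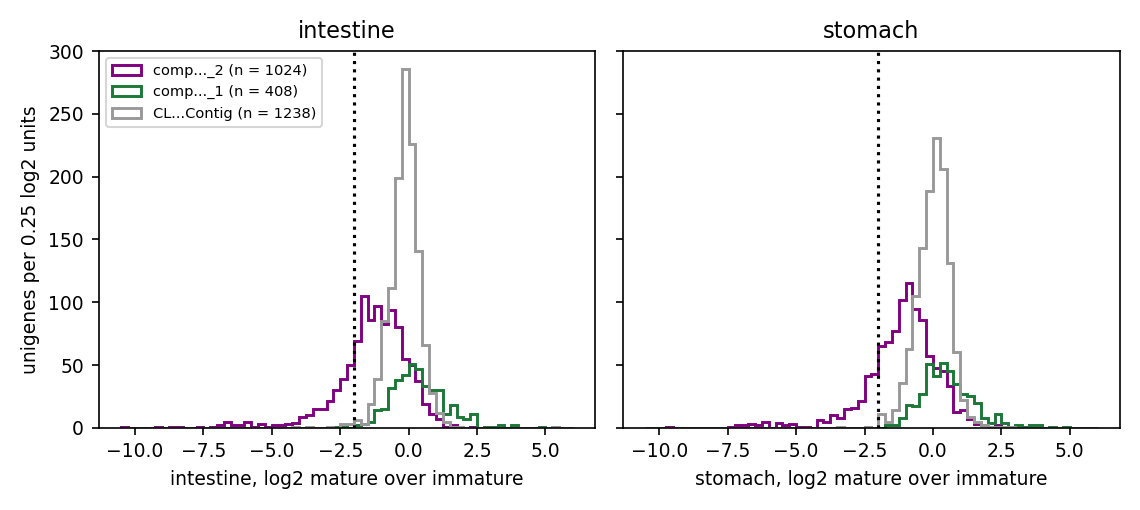
Histograms of the log2 difference of mature from immature, after adding 0.5 FPKM, for the 2670 unigenes with at least 20 FPKM in MUI and MUS, by form of ID, in the intestine (left) and stomach (right); the dotted line marks the ratio of 4. Unigenes ending in _2 lie to the left of those ending in _1 and of the CL contigs, with medians of -1.20, 0.25 and -0.13 in the intestine and -0.98, 0.42 and 0.07 in the stomach.

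The only CL contig among the members had 2.77, 5.68 and 3.52 FPKM in MDI, against 25.7, 21.4 and 19.5 FPKM in MUI. In the stomach it had 2.74, 3.31 and 0.881 FPKM in MDS, against 25.8, 30.3 and 25.7 FPKM in MUS. Its immature libraries were near the minimum of 20 FPKM in both tissues. No member with a component ID shared its component and ending with another unigene, since each component occurred once per ending in the table. Component sums therefore equalled the members' own values. That all 126 met both ratios follows from the rule and is no separate check.

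Many values of mature SA were too small to stand for a read. Of the 762 values of members in mature libraries, 9 were listed at 0 and 89 lay above 0 but under 1e-06 FPKM, the smallest at 9.73e-42 FPKM, while no value of members in immature libraries lay under 1e-06 FPKM. Such values cannot come from whole reads, so read counts cannot be recovered from the FPKM and the depth behind a value is unknown. They also followed the ending. Among all unigenes ending in _2, 18.9% of values in MDI and 2.24% in MUI were above 0 and under 1e-06 FPKM, and 20.8% in MDS and 4.59% in MUS. For the ending _1 these shares were 1.54% in MDI and 17.9% in MUI, and 1.75% in MDS and 15.1% in MUS. For CL contigs these shares were at most 0.374% in any group. At least 1 mature value at 0 or under 1e-06 FPKM was found for 27 members, and the other 100 were above it in all 6 mature libraries.

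The member comp55794_c0_seq1_2, with the highest level in its lower immature tissue, had 3.29, 4.60 and 4.50 FPKM in MDI, against 6559, 6534 and 6501 FPKM in MUI. In the stomach it had 10.6, 4.61 and 9.28 FPKM in MDS, against 905, 925 and 944 FPKM in MUS. All mature libraries were at 10.6 FPKM or less, and all immature libraries at 905 FPKM or more. The log2 difference of mature from immature was -10.46 in the intestine and -6.74 in the stomach. It held rank 2 of all unigenes by mean FPKM in MUI and rank 17293 in MDI, and rank 75 in MUS and rank 8413 in MDS.

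comp39290_c0_seq1_2, whose smaller ratio was the largest of all members, averaged 0.0778 ± 0.135 FPKM in MDI and 316 ± 5.65 FPKM in MUI (SD, n = 3 each). Its MUI libraries were at 318, 320 and 309 FPKM, while the highest MDI library was at 0.233 FPKM. In the stomach it averaged 0.119 ± 0.191 FPKM in MDS and 95.9 ± 4.83 FPKM in MUS, with 90.4, 98.3 and 99.1 FPKM in the libraries of MUS. Its values were thus close to 0 in both mature tissues, and its immature libraries were close to each other. The lowest mature values, 5.24e-08 FPKM in MDI_2 and 1.46e-08 FPKM in MDS_3, were too small to come from whole reads. The log2 differences of mature from immature, -9.10 in the intestine and -7.28 in the stomach, depend on the 0.5 FPKM added, since the mature means lie below it.

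**Figure D3:**
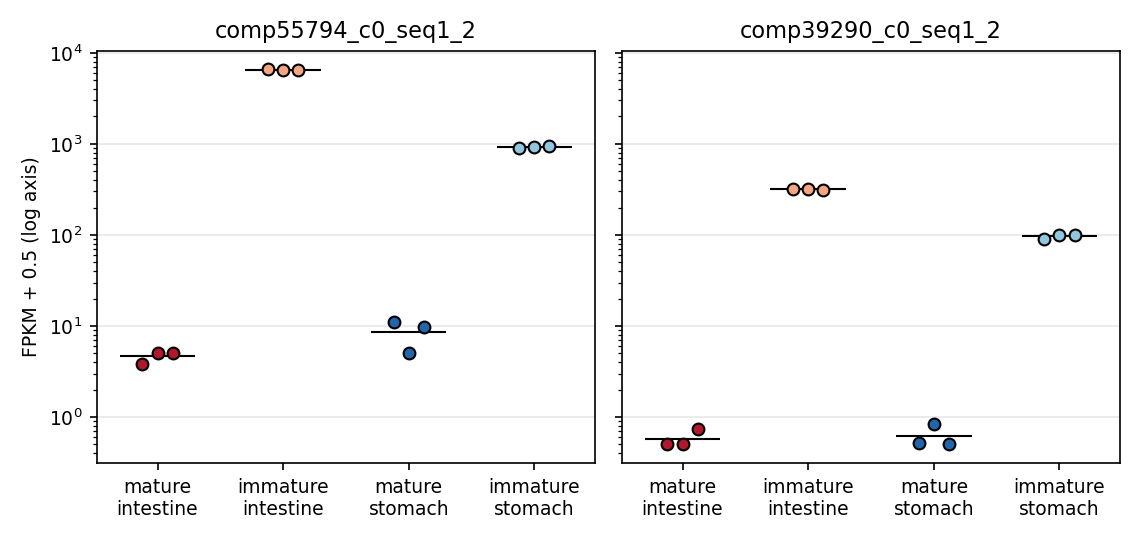
FPKM + 0.5 on a log axis in each library of MDI, MUI, MDS and MUS for both named members; points are libraries and bars are the mean of 3. In both panels the mature libraries lie below the immature libraries of the same tissue, with means of 4.13 FPKM in MDI and 6531 FPKM in MUI on the left and 0.0778 FPKM in MDI and 316 FPKM in MUI on the right.

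Most members kept a measurable level at maturity, and a smaller number was nearly absent. Neither ratio reached 16 for 85 members, which had median levels of 6.12 FPKM in MDI and 45.6 FPKM in MUI, and 6.53 FPKM in MDS and 42.4 FPKM in MUS. Both ratios were at least 16 for 27 members. These had medians of 0.0630 FPKM in MDI and 60.8 FPKM in MUI, and 0.166 FPKM in MDS and 51.3 FPKM in MUS. The split was made on the ratios, so the lower mature level of these 27 follows from it. The remaining 15 members reached a ratio of 16 in 1 tissue. All 6 mature libraries were under 0.5 FPKM for 12 members and under 0.01 FPKM for 6 of them. The most abundant of these 6 had 77.2, 70.9 and 51.7 FPKM in MUI and 75.8, 61.3 and 69.6 FPKM in MUS. At the other end, 7 members had means of at least 20 FPKM in both MDI and MDS, led in MDI by a member with 37.4, 41.4 and 39.8 FPKM there against 202, 203 and 207 FPKM in MUI.

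The fall was larger in the intestine for 81 members and larger in the stomach for 46. It was within 2-fold between the tissues for 97 members, at least 2-fold larger in the intestine for 20 and at least 2-fold larger in the stomach for 10. The median log2 difference of mature from immature in the intestine, minus that in the stomach, was -0.25 over members. Over the 2543 other unigenes with at least 20 FPKM in MUI and MUS it was -0.14. Shares of all unigenes by these cuts were not computed. Across members, which are not independent replicates, the log2 differences of both tissues gave a Pearson r of 0.78 (n = 127). The rule requires both to be at most -2 and values under 0.5 FPKM at maturity limit both, so the counts and r are a description only. The member farthest from an equal fall had 1.72 FPKM in MDI_1 and was listed at 0 in MDI_2 and MDI_3, against 18.2, 21.1 and 21.7 FPKM in MUI. In the stomach it was listed at 0 in the 3 libraries of MDS, against 427, 424 and 428 FPKM in MUS. No fold is given for its stomach. It was the only member at 0 in all libraries of a group.

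**Figure D4:**
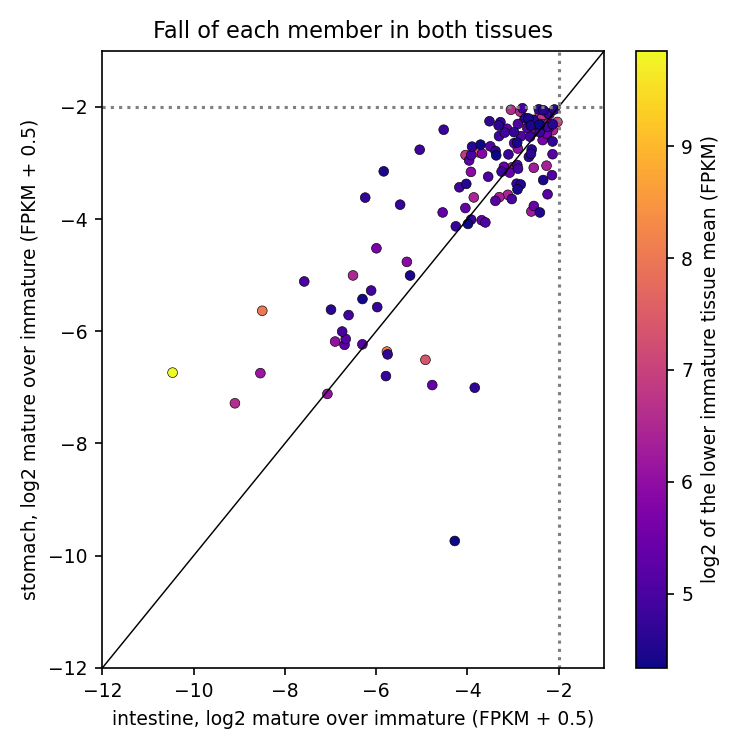
Log2 difference of mature from immature, after adding 0.5 FPKM, in the intestine (horizontal) and stomach (vertical) for the 127 members; colour gives log2 of the lower of the MUI and MUS means, the diagonal marks equal falls and the dotted lines the ratio of 4. Points crowd near the dotted lines, 27 lie beyond a ratio of 16 in both tissues, and the lowest point is the member listed at 0 in MDS, whose position is set by the 0.5 FPKM added.

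As a share of all FPKM, the members took 0.118% to 0.122% in the libraries of MDI, against 2.25% to 2.27% in MUI, and 0.542% to 0.554% in MDS, against 3.69% to 3.72% in MUS. In each tissue 1 member held much of the share. Without comp55794_c0_seq1_2, the members took 1.35% in MUI. The other, in the stomach, had 2380, 2442 and 2464 FPKM in MDS, against 11743, 12071 and 12127 FPKM in MUS, where it was the most abundant of all unigenes. In the intestine it had 5.34, 15.0 and 13.9 FPKM in MDI, against 51.9, 69.0 and 71.0 FPKM in MUI. After adding 0.5 FPKM, its mean was thus 204 times higher in the stomach at maturity and 186 times higher before it. It fell alike in both tissues, with log2 differences of -2.44 in the intestine and -2.30 in the stomach. Without this one, the members took 0.159% in MDS and 1.75% in MUS. Among the 100 most abundant unigenes there were 0 members in MDI and 1 in MUI, and 1 in MDS and 3 in MUS. Most members were of moderate level, with 52 under 50 FPKM and 92 under 100 FPKM in both immature tissues, while 12 were at 100 FPKM or more in both.

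The libraries of a group were close to each other. For unigenes at 200 FPKM or more, the coefficient of variation of the 3 libraries had a median of 1.43% to 1.62% in the 4 groups. Among members it was 27.4% in MDI and 6.20% in MUI, and 32.5% in MDS and 6.55% in MUS, larger at the lower levels of mature SA. P-values below therefore measure only the spread between these libraries, which may be technical.

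Intestine against stomach was not itself a term of the rule, although the rule set limits on the levels of all 4 groups. It was tested within each stage by limma, with MUS entered as 1 sample, the mean of its libraries. The lone sample is assumed to vary like the other groups, whose spread the fit shares. The libraries of MUS were not clearly closer to each other than those of the other groups, so the counts with MUS as 3 libraries are given too. The rule needs at least 20 FPKM in both immature tissues, which keeps out unigenes of 1 tissue only. Calls among the 2543 other unigenes with that minimum were not counted. The shares called are therefore not read as particular to the members. Calls required a Benjamini-Hochberg adjusted p of 0.05 over the 50372 unigenes and a log2 difference of at least 1. In mature SA, 7 of the 127 members (5.51%) were higher in the intestine and 11 (8.66%) higher in the stomach, against 17.3% and 6.62% of all unigenes tested (24.0% in either direction). In immature SA, 13 members (10.2%) had higher intestinal values and 14 (11.0%) higher stomach values, against 18.1% and 7.81% of all (25.9% in either direction). With MUS as 3 libraries these were 18 members (14.2%) and 16 (12.6%), against 22.8% and 9.55% of all, so which tissue had more calls in immature SA depends on how MUS was entered. After median of ratios scaling, 1 member (0.787%) was higher in the intestine and 23 (18.1%) were higher in the stomach for mature SA, against 12.7% and 10.1% of all. For immature SA, 8 (6.30%) and 23 (18.1%) were, against 13.4% and 11.5% of all, so the gap between the counts was larger with that scaling. That scaling moved the median log2 difference of all unigenes by -0.23 in mature and -0.29 in immature SA. In the deposited values, 92 members (72.4%) were called at neither stage, against 61.0% of all. At both stages 4 (3.15%) were higher in the intestine and 6 (4.72%) higher in the stomach, against 7.98% and 2.10% of all. The difference between the stages was not tested, because it is also the difference between the contrasts that chose the members.

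By size, 101 members were within 2-fold between the tissues at maturity, 10 were at least 2-fold higher in the intestine and 16 were so in the stomach. In immature SA, these were 90, 21 and 16. The shares of all unigenes by this 2-fold cut were not computed, so these counts are not read as particular to the members. All 6 mature libraries were under 0.5 FPKM for 12 members, which the 0.5 FPKM added keeps within 2-fold at maturity whatever their tissue balance. Of the 21 higher in the immature intestine, 5 were also at least 2-fold higher in the mature intestine and 16 were within 2-fold at maturity. These 16 include comp39290_c0_seq1_2, with means of 0.0778 FPKM in MDI and 0.119 FPKM in MDS, so being within 2-fold is not read as a measured loss of balance. Of the 16 higher in the immature stomach, 7 were also higher in the mature stomach, 7 were within 2-fold and 2 were higher in the mature intestine. Those 2 averaged only 0.574 and 1.32 FPKM in MDI, beside 0 and 0.119 FPKM in MDS. The first was listed at 0 in MDI_2 and MDI_3. At such levels the 0.5 FPKM added weighs on the balance, so a change of side is not read from them. The median log2 difference of intestine from stomach over members was -0.11 at maturity and 0.20 before it, against 0.23 and 0.31 over all unigenes tested. The same median was 0.12 at maturity and 0.28 before it over the 2543 other unigenes with at least 20 FPKM in MUI and MUS. The members' median was thus below that of both sets at both stages. After median of ratios scaling it was -0.36 at maturity and -0.18 before it, against 0 and 0.02 over all, so the sign of the immature median changed with the scaling.

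Of the 3 most intestine-weighted members of immature SA, 2 were also higher in the mature intestine, while comp55794_c0_seq1_2 had a log2 difference of intestine from stomach of -0.91 in mature and 2.82 in immature SA. The most stomach-weighted, with 11981 FPKM in MUS, kept its side at maturity, and the next was the member listed at 0 in all libraries of MDS. The most intestine-weighted had 36.7, 56.2 and 47.4 FPKM in MDI and 6.18, 3.81 and 3.23 FPKM in MDS. In immature SA it had 726, 730 and 752 FPKM in MUI and 32.1, 42.1 and 38.4 FPKM in MUS. Its libraries of the intestine lay above those of the stomach at both stages. After adding 0.5 FPKM, the intestinal mean was 9.64 times that of the stomach in mature and 19.4 times in immature SA. The next most intestine-weighted had 4.05, 4.69 and 3.39 FPKM in MDI and 1.86, 1.51 and 1.22 FPKM in MDS, and 202, 204 and 199 FPKM in MUI and 27.6, 24.0 and 28.4 FPKM in MUS. It was also higher in the intestine at both stages, with a smaller factor at maturity, 2.24 against 7.44 after adding 0.5 FPKM. Without regard to size, the 3 libraries of the intestine lay above those of the stomach at both stages for 15 members (11.8%). They lay below them at both stages for 21 (16.5%). Over the unigenes tested these shares were 21.7% and 6.43%. Over those with at least 20 FPKM in MUI and MUS they were not computed. The order was opposite for 4 members (3.15%), with the intestine below the stomach at maturity and above it before, against 3.34% of all; for 1 of them the mature values were all under 0.01 FPKM, and the reverse held for 0 members, against 2.81% of all.

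**Figure D5:**
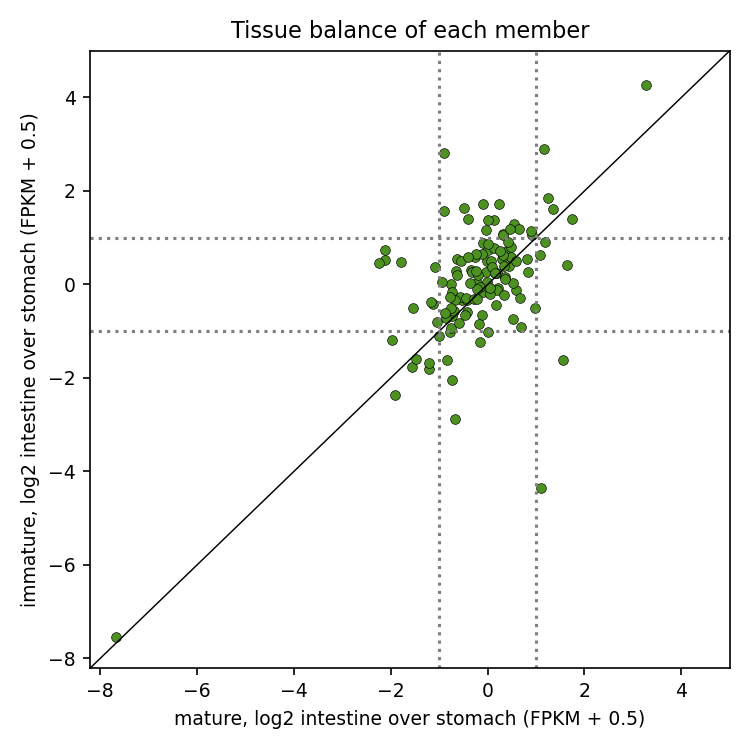
Log2 difference of intestine from stomach, after adding 0.5 FPKM, in mature SA (horizontal) and immature SA (vertical) for the 127 members; the diagonal marks an equal balance and the dotted lines a 2-fold difference. Of the points, 78 lie within 2-fold at both stages, and the point at the lower left is the member with 2429 FPKM in MDS and 11981 FPKM in MUS.

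Beside the members, the 228 unigenes of the mirrored rule had medians of 52.7 FPKM in MDI and 5.02 FPKM in MUI, and 46.1 FPKM in MDS and 4.27 FPKM in MUS. Their median log2 difference of mature from immature was 3.05 in the intestine and 3.20 in the stomach, against -3.13 and -2.96 for the members. Their median difference of intestine from stomach was 0.02 at maturity and 0.11 before it. They took 3.33% of the summed FPKM in MDI and 0.387% in MUI, and 4.21% in MDS and 0.442% in MUS. The direction is fixed by the rules, and no difference between the sets was tested.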

How the data were processed

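RNA-Seq libraries of the MF were made from total RNA of the intestine and stomach, 3 per group in 4 groups. The authors assembled clean reads into the unigenes of the MF with Trinity and deposited 1 FPKM value per unigene and library. No source used here names the mapping or quantification software. Summed FPKM was 612873 to 727591 per library. Groups were taken from the sample titles. The members and settings were chosen with earlier results of these data known. Members were selected in Python 3.11.15. limma 3.58.1 in R 4.3.3 was run on log2(FPKM + 0.5), with an intensity trend, 2-sided, over 10 samples (3 each of MDI, MUI and MDS, and MUS as 1 sample, because earlier results had taken its libraries to differ by no more than sampling noise, which could not be repeated here without read counts and which the coefficients of variation, alike in the 4 groups, do not show for MUS alone) and for unigenes with a mean of the group means of at least 0.5 FPKM, which all 127 members passed. The paper's count method was not used, since FPKM are not counts. No p-value is given for a single unigene. The limma step was tested on simulated data. Alternatives were other pseudocounts, scalings, filters, thresholds of the rule, ways to enter MUS, and leaving out each library. IDs were printed for the member with the highest smaller immature mean and that with the largest smaller ratio; other members are given without an ID, chosen after their values were seen.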

Additional observations from a re-analysis of the deposited data

Results flagged for a closer look

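For 4 members (3.15%, against 3.34% of all unigenes tested), the tissues were in opposite order at the stages, with every library of the intestine below every library of the stomach in mature SA and above it in immature SA. The difference between the stages was not tested. For comp55794_c0_seq1_2, MDI was at 3.29 to 4.60 FPKM and MDS at 4.61 to 10.6 FPKM, while MUI was at 6501 to 6559 FPKM and MUS at 905 to 944 FPKM, so its mature libraries nearly met. The others averaged 6.35 FPKM in MDI and 7.70 FPKM in MDS beside 87.3 FPKM in MUI and 57.9 FPKM in MUS, 0.0543 FPKM in MDI and 2.11 FPKM in MDS beside 31.1 FPKM in MUI and 22.6 FPKM in MUS, and under 0.01 FPKM in both mature tissues beside 38.9 FPKM in MUI and 37.2 FPKM in MUS. The mature order of this last member rests on values too small to come from whole reads and is not a measured difference between the tissues. After median of ratios scaling, 3 of the 4 were still higher in the immature intestine.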

How the results depend on the processing

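With 10 or 50 FPKM as the minimum, 278 or 40 unigenes met the rule, and with a ratio of 2 or 8, 455 or 50, since these settings define the set. A pseudocount of 0.1 or 1, group medians, either scaling and leaving out 1 library gave 115 to 144, and without 1 library 125 to 132. At each of these settings of the rule, 93.6% to 100% ended in _2. The median log2 difference was -3.27 in the intestine after quantile normalization, and -3.06 and -2.83 in the stomach with 0.1 and 1 FPKM added; without 1 library it was -3.26 to -3.11 in the intestine and -3.06 to -2.92 in the stomach. Members higher in the intestine numbered 8 (immature) and 1 (mature) after median of ratios scaling, 1 (mature) after quantile normalization, 4 (mature) with 1 FPKM added, and 21 (immature) and 4 (mature) with only the groups compared, where 109 members were tested in mature SA. Members higher in the stomach numbered 23 at each stage after median of ratios scaling and 23 (mature) after quantile normalization. Without 1 library the ranges were 13 to 15 and 12 to 16 in immature SA, and 5 to 9 and 9 to 12 in mature SA, for the intestine and the stomach. Deviations of same-numbered libraries of the tissues correlated by -0.00322 to 0.0309, and those of other-numbered libraries by -0.0211 to 0.0164. These ranges overlap and the spread may be technical. Between the stages, where animals differed, same-numbered libraries gave 0.000522 to 0.0153 in the intestine and 0.00517 to 0.00967 in the stomach. Other-numbered libraries gave -0.00932 to 0.00867 and -0.0073 to 0.00148. In the stomach these ranges did not overlap, although no animal was shared. The correlations therefore cannot decide whether the numbers pair the samples, and a shared animal remains possible. With the replicate block and MUS as 3 libraries, 19 and 16 members were called in immature and 8 and 13 in mature SA. Without the block these were 18 and 16, and 8 and 12. Over all 50372 unigenes, the block gave 11308 and 4708 calls in immature and 8603 and 3301 in mature SA. Without it these were 11496 and 4812, and 8814 and 3384. With only MDI and MDS fitted, 9041 of 46055 unigenes were higher in the intestine. Calls over all unigenes moved at the other settings too, so the changes in the counts of members are not read as particular to them. With components formed without the last number, 43 members gained a partner, 108 of 126 sums met both ratios and none of the partners met the mirrored rule. Whether IDs that differ only in the last number belong to related sequences is not known. These sums therefore cannot show whether another unigene offsets the fall of a member. The shares without the most abundant member of a tissue were chosen after seeing the data.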
